A study of Rattus norvegicus with 10 samples.

Results

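Prnp and Plet1 encode proteins that are held on the outer face of the cell by a glycosylphosphatidylinositol (GPI) anchor, and both had lower signals in macrophages that had taken up myelin. They are 2 of the 14217 genes named on the arrays, and they are read by 4 of the 31042 probe sets tested, namely every probe set to which the array annotation gives Prnp or Plet1 as its single gene symbol: 1370156_at for Prnp, and 1374594_at, 1395887_at and 1397729_x_at for Plet1. The genes were picked because of their differences in this very comparison, so these differences are described, and no test of them is used as support. The cells were resident peritoneal macrophages of Hsdcpb:WU (Wistar) rats weighing 200 to 224 g, whose age the labels do not give, and by the protocol over 95% of the adherent cells were macrophages. Mye-macrophages (5 samples) received 100 µg/ml of brain myelin, isolated on a density gradient, during 3 days of culture, and control macrophages (5 samples) were cultured equally long without it. Every sample of both groups was then stimulated with IFNγ and IL-1β (100 ng/ml) for 9 hours, so no unstimulated level is at hand. In bulk RNA, fewer cells of a type and less RNA per cell cannot be told apart.

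A GPI anchor is a glycolipid that is built in the endoplasmic reticulum and joined to the C terminus of a protein in place of a membrane span. Anchored proteins gather in membrane domains rich in cholesterol and sphingolipids, the lipids that myelin also holds in large amounts. Prnp encodes the cellular prion protein, a copper-binding glycoprotein abundant in neurons and also found on leukocytes, whose misfolded form causes prion disease and whose normal form helps to maintain the myelin of peripheral nerves. Plet1 encodes a surface protein first known from the placenta and from epithelial progenitor cells, and it is also carried by some dendritic cells and tissue macrophages.

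The stretches of DNA just upstream of both genes are shown because both genes were lower in mye-macrophages, so that a reader can compare the starts from which they are transcribed. Both come from RefSeq on the rat build GRCr8 and hold the 250 bases before the start of the gene on the plus strand, at chr3:139638826-139639075 for Prnp and at chr8:59738389-59738638 for Plet1. Capitals mark matches, on either strand, to 5 motifs, and no match overlaps another. The motif of the TATA box was spelled TATAAA, that of the GC box was spelled GGGCGG, and that of the CCAAT box was spelled CCAAT. For AP-1 the letters were TGACTCA, and for the core of the antioxidant response element they were TGACNNNGC.
Prnp: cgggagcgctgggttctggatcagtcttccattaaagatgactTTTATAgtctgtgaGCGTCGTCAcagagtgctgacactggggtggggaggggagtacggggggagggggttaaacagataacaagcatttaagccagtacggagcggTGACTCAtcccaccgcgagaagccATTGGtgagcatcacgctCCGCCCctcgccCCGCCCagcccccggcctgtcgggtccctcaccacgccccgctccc
Plet1: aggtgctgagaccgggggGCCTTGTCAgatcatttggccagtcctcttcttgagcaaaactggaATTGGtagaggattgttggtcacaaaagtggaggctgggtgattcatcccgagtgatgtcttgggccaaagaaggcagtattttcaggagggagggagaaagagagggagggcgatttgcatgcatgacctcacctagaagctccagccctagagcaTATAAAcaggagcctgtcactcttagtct

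The windows differ in kind. Prnp has 2 GC boxes on the other strand, from 58 to 53 and from 46 to 41 bases before the start, a CCAAT box on the other strand, an AP-1 site from 100 to 94 bases before it, and a TATAAA match on the other strand that ends 202 bases before it. Plet1 has a TATA box from 29 to 24 bases before the start and no GC box or AP-1 match. Both windows hold 1 CCAAT match and 1 match to the antioxidant response element core on the other strand. Among 27457 rat promoter windows of this length, a GC box occurs in 32.4%, a CCAAT match in 34.3%, a TATA box in 13.1%, the antioxidant response element core in 10.2% and the AP-1 site in 3.96%. These are matches of letters, and whether any factor binds them was not measured. RefSeq also lists a pseudogene, Plet1-ps1, on another chromosome, and the sources used here do not say whether a probe set of Plet1 reads it as well. The ending _x_at marks probes that may also match other sequences, and 1395887_at and 1397729_x_at were designed from the same clone sequence, so these 2 are not independent readings of Plet1.

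The prion protein gene Prnp was lower in mye-macrophages in every pair, where a pair is the 2 samples with the same replicate number. Its signals (log2 RMA signal) were 3.63, 4.18, 4.19, 3.58 and 4.44 in control replicates 1 to 5 and 2.94, 3.46, 3.26, 2.84 and 3.75 in mye-macrophage replicates 1 to 5. Replicate 5 was the highest and replicate 4 the lowest in both groups, and the groups overlapped because mye-macrophage replicate 5 lay above control replicates 1 and 4. The means were 4.00 ± 0.38 in control macrophages and 3.25 ± 0.37 in mye-macrophages (SD, n = 5 each). The difference was -0.75 on the log2 scale, or 1.68-fold lower, with a standard error of 0.07 from limma with the replicate number as a block, called the paired fit from here on, and 0.21 without the block. Within pairs the differences ran from -0.69 to -0.92, with an SD of 0.10 (n = 5), against the SDs of 0.38 and 0.37 between samples of a group.

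Plet1 was lower in mye-macrophages in every pair on all 3 of its probe sets. On the brightest, 1374594_at, the log2 signals were 4.51, 4.60, 5.71, 4.97 and 5.22 in control replicates 1 to 5 and 3.71, 3.60, 4.93, 4.39 and 4.25 in mye-macrophage replicates 1 to 5. Replicate 3 was the highest in both groups, and mye-macrophage replicate 3 lay above control replicates 1 and 2, so the groups overlapped. The means were 5.00 ± 0.49 in control macrophages and 4.18 ± 0.54 in mye-macrophages (SD, n = 5 each). The difference was -0.83 on the log2 scale, or 1.77-fold lower (standard error 0.08 with the block and 0.28 without it, limma), and the SD of the 5 pair differences was 0.17.

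**Figure D1:**
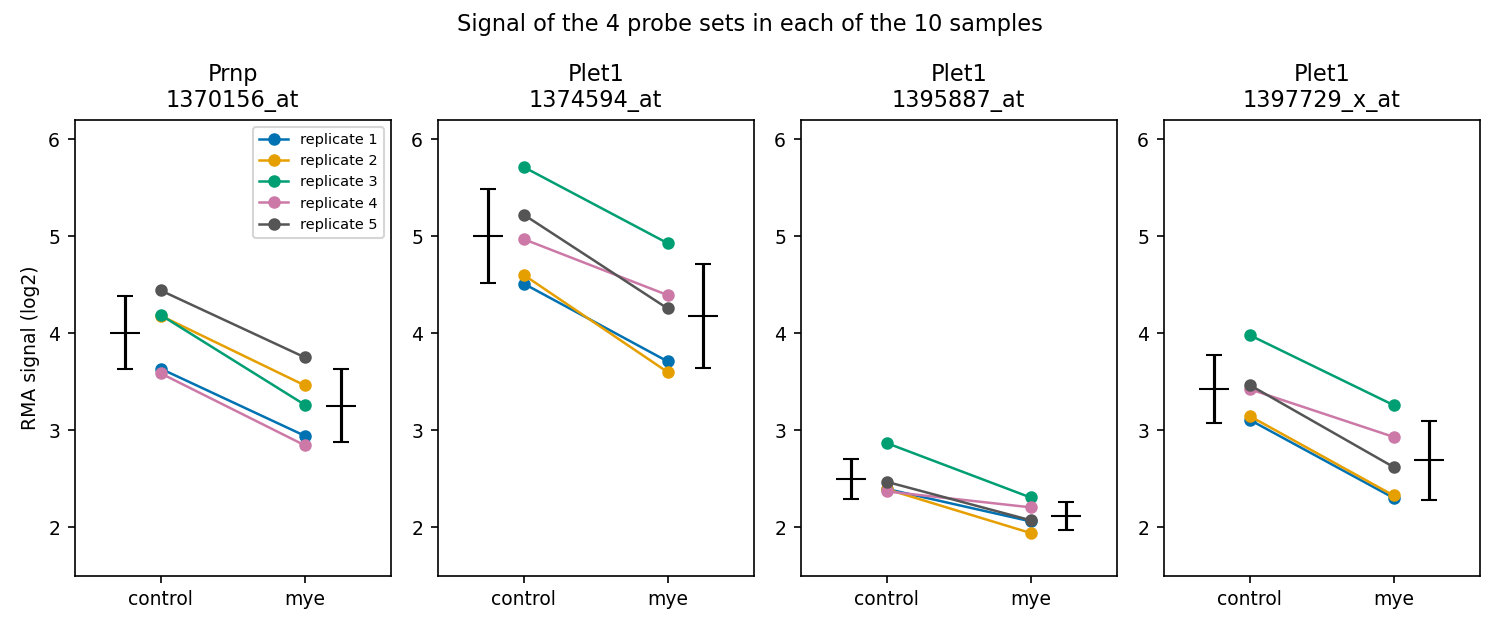
Log2 RMA signal (vertical axis) of the probe set of Prnp and the 3 probe sets of Plet1 in control macrophages and mye-macrophages. Each line joins samples with the same replicate number, and black bars give the mean ± SD of 5 samples; all 20 lines fall, while the groups overlap on every probe set but 1395887_at.

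The second Plet1 reading, 1397729_x_at, gave 3.11, 3.14, 3.98, 3.42 and 3.46 in control replicates 1 to 5 and 2.30, 2.33, 3.26, 2.93 and 2.62 in mye-macrophage replicates 1 to 5 (log2 signal). As on 1374594_at, replicate 3 was the highest in both groups and mye-macrophage replicate 3 lay above control replicates 1 and 2. The means were 3.42 ± 0.35 and 2.69 ± 0.41 (SD, n = 5 each), and the difference was -0.74 on the log2 scale, or 1.66-fold lower (standard error 0.07 with the block and 0.21 without it, limma).

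The dimmest Plet1 probe set, 1395887_at, showed the smallest difference and the only one without overlap. It gave 2.39, 2.39, 2.87, 2.37 and 2.47 in control replicates 1 to 5 and 2.06, 1.94, 2.31, 2.20 and 2.07 in mye-macrophage replicates 1 to 5 (log2 signal). All mye-macrophage samples lay below all control samples, but the gap between the groups was 0.06, and groups that part in this direction were seen in 0.374% of the 15521 probe sets kept by the variance filter. The means were 2.50 ± 0.21 and 2.12 ± 0.14 (SD, n = 5 each) and the difference was -0.38, or 1.30-fold lower (standard error 0.08 with the block and 0.11 without it, limma). This probe set had a mean signal of 2.31, beside a median of 2.32 over all values of the arrays, and fold changes are compressed at such low signals.

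**Figure D2:**
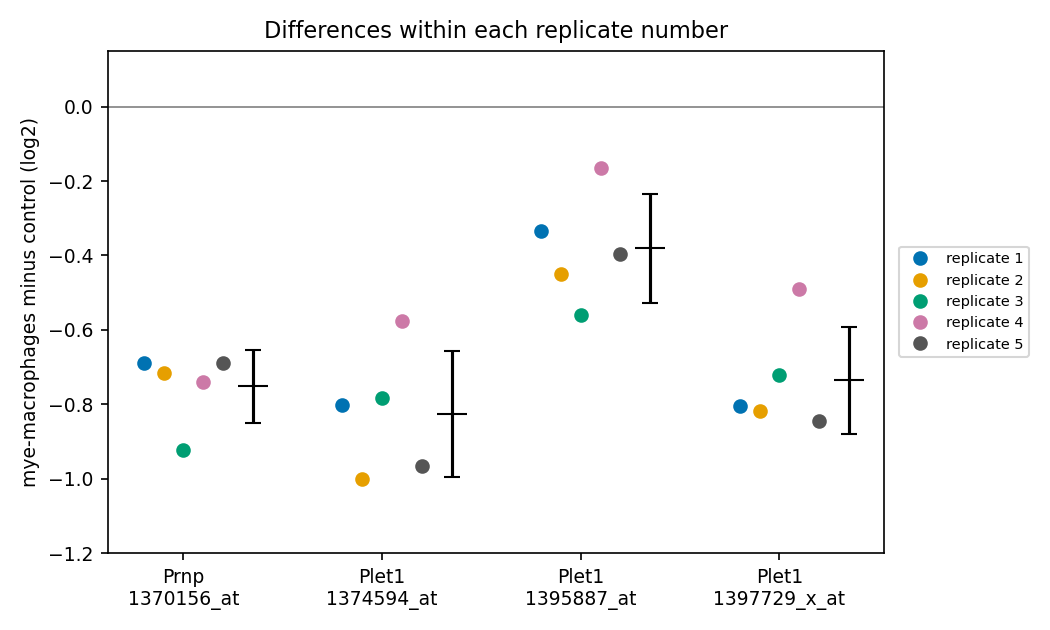
Difference between mye-macrophages and control macrophages of the same replicate number (log2, vertical axis) on each probe set, 1 point per pair, with the mean ± SD of 5 pairs as black bars. All 20 points lie below 0, and replicate 4 shows the smallest difference on each probe set of Plet1.

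The 4 probe sets stood among the larger falls of the array. Over all 31042 probe sets, 24 had a mean difference below that of Plet1 1374594_at, 39 below that of Prnp, 45 below that of Plet1 1397729_x_at and 496 below that of Plet1 1395887_at. A fall in 5 of 5 pairs, which all 4 showed, was found in 9.59% of the filtered probe sets, and a mean fall at least as large as the smallest of the 4 in 3.18%. In the paired limma fit all 4 had an adjusted p under 0.05, as 2.69% of the 15521 filtered probe sets did (1.9% lower and 0.792% higher in mye-macrophages). Without the block 0 of the 4 and 0 of the 15521 passed in limma and in the methods' t-test, and 1032 probe sets (6.65%) had an unadjusted p under 0.05 in limma. Since the genes were chosen on this comparison, nothing is read from these counts.

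**Figure D3:**
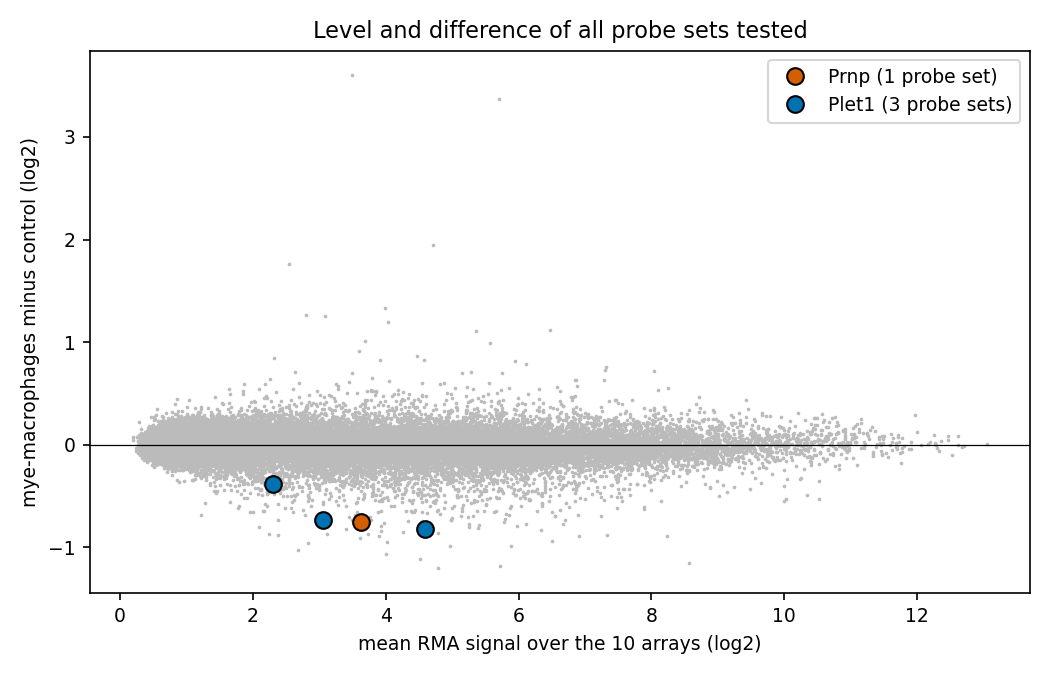
Mean log2 RMA signal over the 10 arrays (horizontal axis) and difference between mye-macrophages and control macrophages (log2, vertical axis) of the 31042 probe sets tested, in grey. The probe set of Prnp (orange) and the 3 of Plet1 (blue) lie below 0, at differences from -0.83 to -0.38.

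Samples were ordered differently by Prnp and by Plet1. The 3 Plet1 probe sets followed each other over the 10 samples (r of 0.926 to 0.985, and 0.867 to 0.980 after each group's mean was taken out), although they share their arrays and 2 of them share a clone. Prnp and Plet1 1374594_at had r = 0.605 over the 10 samples, which includes the shared fall, and 0.215 after the group means were taken out.

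**Figure D4:**
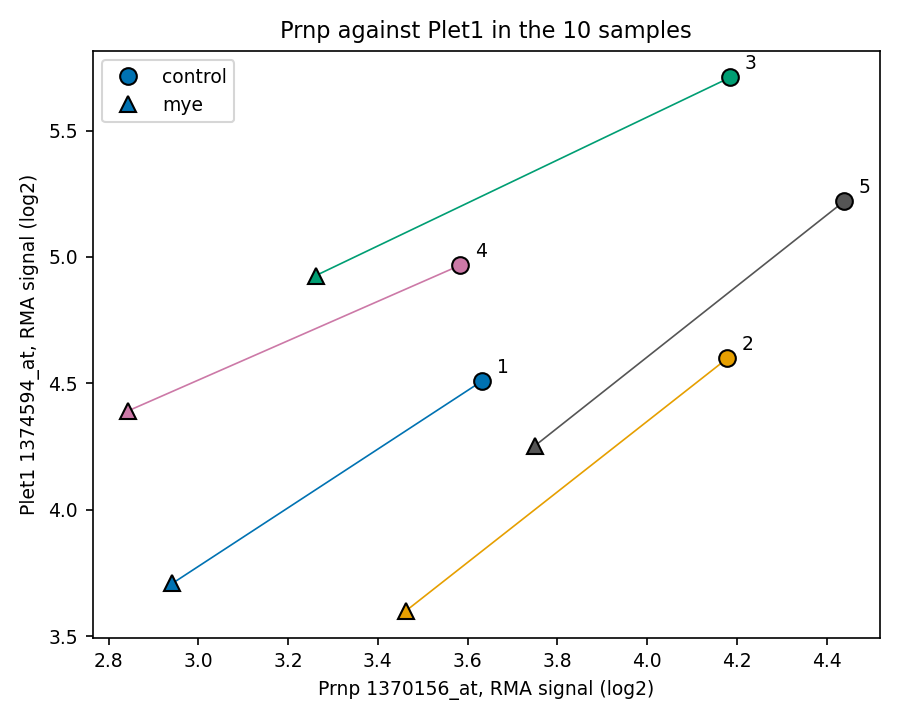
Log2 RMA signal of Prnp 1370156_at (horizontal axis) and of Plet1 1374594_at (vertical axis) in the 10 samples, circles for control macrophages and triangles for mye-macrophages, with a line and a number for each pair. Each line runs down and to the left, and the pairs differ in where they start.

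Among other genes of GPI-anchored surface proteins, 1 rose in mye-macrophages in the paired limma fit and 0 fell. Of 94 such genes in a list without Prnp and Plet1, 75 had a probe set. The variance filter kept 41 of them, and 74 of the 75 did not pass, where over all 14217 genes (1 probe set each) 0.577% rose and 0.816% fell. The list had a median difference of 0.03 on the log2 scale, beside 0.01 over all genes, and 41 of the 75 differences lay above 0. Without the block 0 of the 75 passed in limma. In mean signal 46 of the 75 lay under the median of the arrays, and signals near the floor understate fold changes.

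The gene that rose was Vnn1, which encodes vanin-1, a GPI-anchored pantetheinase that frees cysteamine and pantothenic acid. Its log2 signals were 5.09, 3.27, 4.34, 6.47 and 4.83 in control replicates 1 to 5 and 6.48, 4.58, 5.51, 6.94 and 6.01 in mye-macrophage replicates 1 to 5. The groups overlapped widely, and every pair rose. The difference was 1.11 on the log2 scale (standard error 0.12, adjusted p = 0.0055 from the paired limma fit and 0.791 without the block), the opposite of Prnp and Plet1 in sign. With the beta-actin gap, a measure of RNA quality, in the paired limma fit, Vnn1 had 0.97 and no longer passed (adjusted p = 0.0671).

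The falls of largest size in the list did not pass. Cd24, a small mucin-like surface protein of many immature cells, was lower in 4 of 5 pairs, with a difference of -0.49 (standard error 0.22, adjusted p = 0.248, paired limma fit). Thy1, a classical surface protein of T cells and neurons, had -0.30 and Lypd3, of the Ly6 family, had -0.27, each lower in 4 of 5 pairs. These values moved with single pairs: Cd24 had -0.76 without pair 1 and -0.32 without pair 3, Thy1 had -0.55 without pair 1 and -0.13 without pair 5, and Lypd3 had -0.44 without pair 2, and none of these passed. Cd24 passed with the beta-actin gap in the paired limma fit, at -0.96 (adjusted p = 0.0449).

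The values of 5 further GPI-anchored proteins that macrophages are known to carry are given as examples, picked after they were seen. None of the 5 passed in the paired limma fit, and Bst1, which the variance filter did not keep, could not pass. The endotoxin co-receptor gene Cd14 had a log2 signal of 10.88 ± 0.82 in control macrophages and 10.95 ± 0.69 in mye-macrophages (SD, n = 5 each). Cd48, the gene of an adhesion ligand of lymphocytes, had 9.84 ± 0.21 and 9.94 ± 0.26, and Bst1, which encodes an ectoenzyme of NAD breakdown, had 9.14 ± 0.19 and 9.21 ± 0.24. The folate receptor gene Folr2 had 6.31 ± 0.53 and 6.54 ± 0.83, and was higher in 4 of 5 pairs. The urokinase receptor gene Plaur was lower in 4 of 5 pairs, with a difference of -0.22 (adjusted p = 0.197, paired limma fit).

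No gene of the machinery that makes the anchor passed. Of 32 genes of anchor synthesis and transfer 24 were measured, and in limma 0 rose and 0 fell with or without the block, with differences from -0.19 to 0.20 and a median of -0.04. The largest were those of Dpm3 (0.20), a subunit of the enzyme that makes dolichol-phosphate mannose, Piga (-0.19), a subunit of the first enzyme of the pathway, Mppe1 (0.16), which trims the anchor, and Pigl (-0.16), a deacetylase of the second step. Among 9 measured genes of enzymes that can release GPI-anchored or other surface proteins, 0 passed in limma either way. Their differences ran from -0.06 to 0.14, with the largest for Gdpd2 (0.14), Ace (0.13), Adam8 (0.08) and Bace1 (-0.06), and the list's median was 0.03. The variance filter kept 12 of the 24 genes and 4 of the 9. At an unadjusted p under 0.05 in the paired limma fit, 0 of these 12 and 0 of these 4 were found, beside 7 of the 41 kept genes of GPI-anchored proteins, 3 of the 5 kept genes around the prion protein and 20.3% of all filtered probe sets.

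Of 16 measured relatives and partners of the prion protein, 1 fell and 0 rose in the paired limma fit, where over all genes 0.816% fell and 0.577% rose, and the median was 0.03. The gene that fell was Atp7a, which encodes a copper pump of the secretory route. Its brightest probe set, 1392536_at, gave 8.03, 7.93, 8.12, 8.11 and 8.18 in control replicates 1 to 5 and 7.71, 7.64, 7.92, 7.73 and 7.89 in mye-macrophage replicates 1 to 5 (log2 signal). The groups parted only narrowly, with 7.93 in the lowest control sample and 7.92 in the highest mye-macrophage sample. Groups that part in this direction were seen in 0.374% of the 15521 filtered probe sets. The difference was -0.30 (standard error 0.07, adjusted p = 0.0475 from the paired limma fit and 0.534 without the block). A further probe set, 1369342_at, fell by 0.62 (adjusted p = 0.0161 from the paired limma fit), and the third, 1380395_at, had -0.03 (adjusted p = 0.887). Without pair 1, 2, 4 or 5 the difference of 1369342_at was -0.55 to -0.68 and its call was lost (limma adjusted p of 0.051 to 0.0695), and with the beta-actin gap it was -0.57 (0.142). On the brightest probe set the difference was -0.27 to -0.32 with any 1 pair left out, but the call was lost without pair 1, 2, 4 or 5 (limma adjusted p of 0.115 to 0.148), in fits that called 31 to 72 probe sets in place of 418. It was also lost with the beta-actin gap, with centred arrays, with bright probe sets only and without a variance filter (limma adjusted p of 0.0514 to 0.268), at differences of -0.28 to -0.30.

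Other partners did not pass. Adgrg6, the gene of the receptor through which prion protein acts on Schwann cells, was lower in 5 of 5 pairs, with a difference of -0.22 (adjusted p = 0.106, paired limma fit). Mtf1, which encodes a metal-sensing transcription factor, had -0.18, and Rpsa, the gene of the laminin receptor, had 0.13. The relatives of Prnp were dim. Prnd, which encodes doppel, had a log2 signal of 0.88 ± 0.17 in control macrophages and 0.87 ± 0.04 in mye-macrophages, near the lowest values of the arrays. Sprn, which encodes shadoo, had 2.06 ± 0.16 and 2.14 ± 0.19 (SD, n = 5 each), a little under the median of 2.32 over all values.

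**Figure D5:**
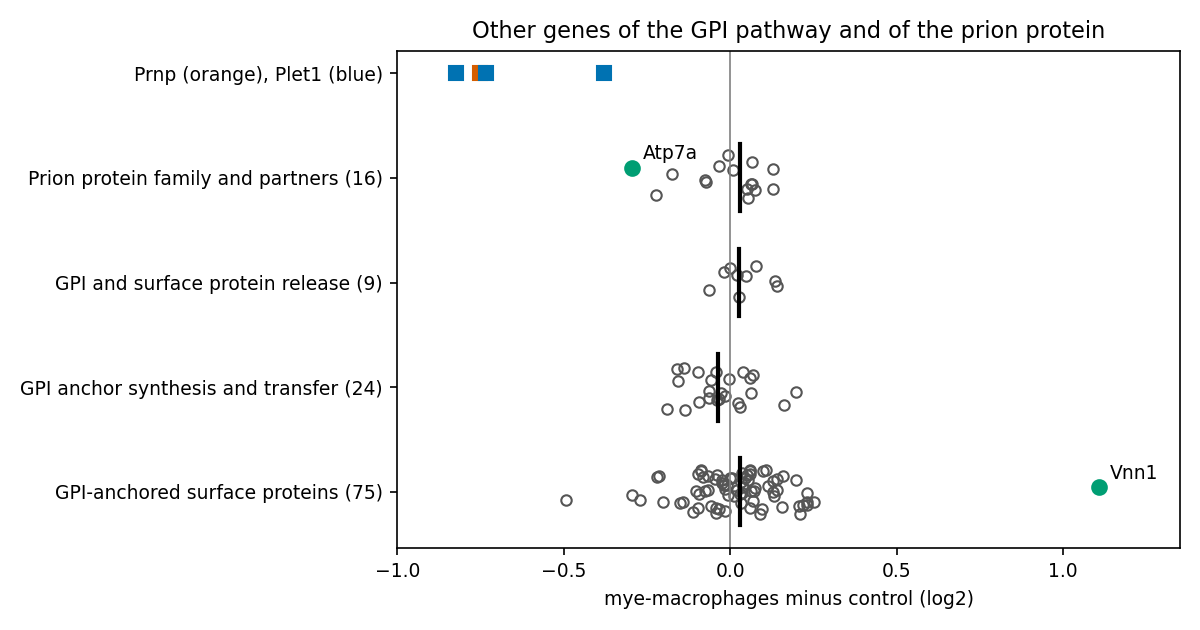
Differences between mye-macrophages and control macrophages (log2, horizontal axis) of the measured genes of 4 lists, 1 point per gene (brightest probe set), with the number of genes in brackets and a black bar at the median. Vnn1 and Atp7a, the filled points, passed in the paired limma fit, and squares give the probe sets of Prnp (orange) and Plet1 (blue) on the same scale.

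Markers of macrophages were present in both groups. Of 14 such genes 13 were measured, with a median difference of 0.07, and 0 passed in limma with or without the block. The variance filter kept 7 of the 13, and the others could not pass. Over all genes 0.577% rose and 0.816% fell in the paired limma fit. Cd68, which was not kept, was 0.14 higher in mye-macrophages and rose in 5 of 5 pairs. The lysozyme gene Lyz2, also not kept, had a log2 signal of 12.27 in control macrophages and 12.28 in mye-macrophages. Cd163, a scavenger receptor gene of some tissue macrophages, lay near the floor in both groups (0.95 and 1.18), and Gata6, a regulator of resident peritoneal macrophages, lay at 2.30 and 2.37.

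Prnp is abundant in brain, from which the myelin came, so markers of brain cells are given beside it. Of 13 neuronal markers 0 passed in the paired limma fit, and 11 lay under the array median in mean signal. Their summed linear signal was 82.2 to 207 in control macrophages and 106 to 286 in mye-macrophages. The brightest, Eno2 (mean log2 signal 6.79), weighs most in it. Of 20 measured markers of oligodendrocytes and myelin, counted by the brightest probe set of each gene, Mobp (3.60 on the log2 scale) and Bcas1 (1.76) rose in that fit and 0 fell. Mbp, the gene of myelin basic protein, is outside this count because its brightest probe set, 1383479_at, had -0.20 and was not kept by the variance filter. A dimmer probe set of Mbp, 1368810_a_at, rose by 3.37 in 5 of 5 pairs (adjusted p = 0.000877, paired limma fit), and the remaining probe set, 1387341_a_at, had -0.04. For the list, the summed signal was 204 to 248 in control macrophages and 253 to 317 in mye-macrophages, with Cnp as the brightest gene (mean log2 signal 6.49). Of 10 astrocyte markers Slc1a3 rose (by 0.91) and 0 fell in the paired limma fit, with summed signals of 38.5 to 76.8 and 40.4 to 95.9. The differences of these 10 ran from -0.62 to 0.91, with 5 above 0, 5 below 0 and a median of 0.01. The variance filter kept 5 of them, 6 of the 13 neuronal markers and 10 of the 20 of oligodendrocytes and myelin. Over all genes 0.577% rose and 0.816% fell. The markers that passed were thus higher in mye-macrophages, in which Prnp was lower, and their part in the difference of Prnp was not tested.

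Plet1 is known from some dendritic cells and from epithelia, and markers of these cells did not pass in the paired limma fit. In that fit 0.577% of all genes rose and 0.816% fell, and markers that the variance filter left out could not pass. Of 10 dendritic cell markers 6 were measured and the filter kept 5. Their median difference was -0.01, and 3 of the 6 lay under the median of the arrays. Their summed signals were 382 to 622 in control macrophages and 282 to 651 in mye-macrophages. The brightest, Cd83 (mean log2 signal 8.54), weighs most in these sums. Of 10 measured mesothelial and epithelial markers the filter kept 5, and 7 of the 10 lay under the median of the arrays. Their summed signals were 41.2 to 46.2 and 38.4 to 49.6, and Epcam, a defining gene of epithelia, lay at 0.57 in control macrophages and 0.51 in mye-macrophages. Markers of T, B and NK cells (10 measured, 10 kept, median difference -0.13) and of granulocytes and mast cells (8 measured, 6 kept, median 0.10) did not pass either. The part of any of these cells in the difference of Plet1 was not tested.

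RNA quality was read from beta-actin. The gap between the 3 prime and 5 prime control probe sets of beta-actin, which widens as RNA is broken down, was 3.02 ± 0.30 in control macrophages and 3.30 ± 0.32 in mye-macrophages (log2, SD, n = 5 each). An exact two-sided permutation test that did not use the pairs gave p = 0.190, and the gap was larger in mye-macrophages in 4 of 5 pairs. Over the 10 samples it ran from 2.66 to 3.71. With this gap as a covariate in the paired limma fit the differences were -0.80 for Prnp and -0.78, -0.68 and -0.40 for Plet1 1374594_at, 1397729_x_at and 1395887_at, and 2 of the 4 probe sets passed, with 16 of all filtered probe sets.

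The genes whose signals ran most closely with Prnp over the 10 samples were Pxdc1 (r = 0.975), Tnfsf4 (0.952), Klf2 (0.952), Zhx2 (0.941) and Ubtf (0.932), out of 10859 filtered probe sets with a single gene symbol. Tnfsf4 encodes OX40 ligand, a costimulatory molecule, Klf2 and Zhx2 encode transcription factors, and Ubtf encodes a factor of ribosomal RNA transcription. All 5 were lower in mye-macrophages in 5 of 5 pairs, by 0.28 to 1.06 on the log2 scale. Running most against Prnp were Zfat (r = -0.943), Blvra (-0.943), Mrpl19 (-0.936), Sidt2 (-0.935) and Fbxl5 (-0.932), all higher in 5 of 5 pairs, of which Blvra encodes biliverdin reductase and Fbxl5 an iron-sensing ubiquitin ligase subunit. After the group means were taken out, r was 0.894 to 0.944 for the first 5 genes and -0.861 to -0.908 for the others. By that measure they ranked 13 to 85 and 33 to 118 from their ends, so other genes came closer. The genes were picked as extremes over the same samples, so this is no separate check. All these correlations share the arrays and the pairs, those over the 10 samples also share the group difference, and they are a description.

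For Plet1 other genes stood at the 2 ends. The highest correlations with 1374594_at over the 10 samples were those of Nqo1 (r = 0.947), Cnot6 (0.930), Ypel3 (0.925), Cd82 (0.921) and Dusp6 (0.921). Nqo1 encodes a quinone reductase, Cnot6 a deadenylase of messenger RNA, Cd82 a tetraspanin of the cell surface and Dusp6 a phosphatase of ERK kinases. These 5 genes were lower in mye-macrophages in 5 of 5 pairs, by 0.22 to 0.61 on the log2 scale. The lowest were those of Card14 (r = -0.973), Dock6 (-0.958), Vat1 (-0.955), Mgll (-0.938) and Coa3 (-0.937), which were higher in 5 of 5 pairs. Card14, a scaffold gene of NF-kB signaling, had 5.55 in control macrophages and 6.36 in mye-macrophages, and Mgll, the gene of monoacylglycerol lipase, had 4.53 and 5.12 (mean log2 signal, n = 5 each). With the group means taken out, r was 0.853 to 0.913 for the first 5 genes and -0.926 to -0.972 for the others. These genes too were picked as extremes over the same samples, and their values are a description. No gene stood in the lists of both Prnp and Plet1. With 5 genes at each end out of 10859 probe sets, this cannot show whether Prnp and Plet1 run with different genes.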

How the data were processed

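Total RNA of 10 macrophage cultures was hybridized by the authors to Affymetrix rat expression arrays, 1 for each sample. The table the authors deposited holds log2 values made by RMA with the affy package, whose version is not given in the sources used here. The medians of the arrays, 2.30 to 2.34, are low for RMA, and these sources do not say why. Folds take the log2 scale as stated, and high or low levels are meant within these arrays only. RMA equalizes the distributions of the arrays, so a shift shared by all genes would be removed, and signals near the floor understate fold changes. Of the 31099 probe sets in the deposited table, 57 Affymetrix controls were left out. Gene symbols came from the array annotation.

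Prnp and Plet1, the gene lists and the named genes were chosen with earlier results of these data known. Prnp and Plet1 were chosen for this very comparison, so their differences are a description. Whether their probe sets passed a fit is given beside the calls over all probe sets, and nothing is read from it. All 31042 probe sets were fitted in R 4.3.3 by lmFit and eBayes of limma 3.58.1, without a block, as the unpaired test in the methods, and with the replicate number as a block. P-values were adjusted by Benjamini-Hochberg over the 50% of probe sets (15521) that varied most by interquartile range, with a threshold of 0.05. The same adjustment was put on the methods' t-test. Same-numbered samples deviated together from their group means (r of 0.404 to 0.791 over all probe sets, at most 0.279 between other numbers), so the numbers pair the samples, and calls of single genes are those of the blocked (paired) fit. The script was tested on simulated data. The exact permutation test was run in Python 3.11 with SciPy 1.17.1. In a list the brightest probe set stood for a gene. Named were, for each list of the GPI pathway and of the prion protein, the genes that passed and the 4 with the largest differences, and for Prnp and Plet1 the 5 probe sets with the highest and the 5 with the lowest correlation. The marker genes, Prnd and Sprn (the relatives of Prnp), Cd14, Cd48, Bst1, Plaur and Folr2 were named after their values were seen. The same holds for the dimmer probe sets of Mbp, Mtf1 and Rpsa.

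The labels do not say whether the cultures of a group came from separate rats, so the spread between samples may be partly technical, and the number of arrays limits the precision. Alternatives covered the block, each sample and each pair left out, centring, the beta-actin gap, array weights, both filters, the probe set per gene and the methods' t-test.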

Additional observations from a re-analysis of the deposited data

Results flagged for a closer look

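Among 12 sets of 5 values (each of the 4 probe sets in each group, and its pair differences), 2 held a value far from the others by Dixon's test, which by chance marks about 1 set in 20. The difference of Prnp in pair 3 was -0.92, while the other 4 pairs lay between -0.69 and -0.74. Plet1 1395887_at had 2.87 in control replicate 3, where the other control samples had 2.37 to 2.47. Without pair 3 the difference of Prnp was -0.71 and that of Plet1 1395887_at -0.34 on the log2 scale.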

How the results depend on the processing

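The differences of the 4 probe sets kept their direction in the 21 alternatives that can move them, with array weights at -0.70 for Prnp and -0.72, -0.37 and -0.67 for Plet1 1374594_at, 1395887_at and 1397729_x_at. The filters and the methods' t-test leave these differences as they are. Without the block and with 1 sample omitted, they ran from -0.88 to -0.64 for Prnp, from -1.01 to -0.65 for Plet1 1374594_at, from -0.43 to -0.29 for 1395887_at and from -0.88 to -0.60 for 1397729_x_at. With 1 pair left out in the fit with the replicate block, they ran from -0.77 to -0.71, from -0.89 to -0.78, from -0.44 to -0.34 and from -0.80 to -0.71. With the beta-actin gap added and no block, Prnp had -0.99. The replicate block leaves the differences as they are and narrows their standard errors, and it moved the probe sets called from 0 to 123 higher and 295 lower. Settings of the blocked fit chosen after seeing the data gave 125 higher and 301 lower with centred arrays, 99 and 238 with bright probe sets only, 39 and 89 without the variance filter, and 6 and 10 with the beta-actin gap. Under the block, the calls were 11 higher and 20 lower without pair 1, 14 and 28 without pair 2, 137 and 522 without pair 3, 32 and 40 without pair 4, and 15 and 23 without pair 5, and leaving out 1 sample without the block gave 0 to 2 higher and 0 to 1 lower. Array weights called 1 lower. Of the 4 probe sets of Prnp and Plet1, 4 passed in the replicate block and with centred arrays. Without any 1 pair, with bright probe sets only or without the variance filter 3 passed. Plet1 1395887_at was not among the bright probe sets and could not pass with these only. With the beta-actin gap under the block 2 passed, and 0 in the fits without the block. In the GPI-anchored list, Vnn1 was the 1 gene higher in the replicate block, in each fit of it with a pair left out, with centred arrays, with bright probe sets only, without the variance filter and with the probe set of the largest interquartile range, and with the beta-actin gap 0 were higher and 1, Cd24, was lower. In the prion protein list, 1 gene was lower in the replicate block, without pair 3 and with the probe set of the largest interquartile range, and 0 in the other alternatives. Signals near the floor limit the Plet1 probe set 1395887_at most.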
